A study of Mus musculus with 265 samples.

Results

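Distal intergenic regions, 1831 of the 20103 regions of the deposited single-cell ATAC-seq matrix, were the regions that overlapped no protein-coding gene and whose midpoint lay more than 50 kb from the nearest protein-coding start site in the GENCODE vM21 annotation of mm10. The rule used positions only and no measured value. The cells were B3, a pre-B line of the mouse that carries an Ikaros fusion protein, ERt2-Ikaros, held outside the nucleus until 4-hydroxytamoxifen (4OHT) binds its estrogen receptor portion. The 0-hour cells and the 24-hour cells carried the same inducible Ikaros, and the 24-hour cells had received 4OHT, labelled as 20 mM, with another addition after about 12 hours. Each time-point had 2 runs of the Fluidigm C1 microfluidic system, with 48 and 47 cells at 0 hours and 60 and 72 cells at 24 hours, and the sources used here do not say whether the runs came from separate cultures. One cultured line stands for each time-point, each run holds a single time-point, and no vehicle-treated 24-hour cells were analysed here, so the run, the time in culture and the drug cannot be told apart from the Ikaros fusion.

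Regions far from genes are where a genome keeps many of its enhancers, insulators and recombination signals. Enhancers are bound by sequence-specific factors that, in pre-B cells, include Ikaros, EBF1, E proteins, RUNX1 and ETS proteins, and they can act on a start site over long stretches of chromatin. CTCF binds at the boundaries of chromatin loops and, in the immunoglobulin loci, beside V segments, while long uniform stretches without genes also hold tandem repeats and old copies of mitochondrial DNA and of ribosomal RNA genes. The labelled cell type was checked against its markers: 8 of 12 B-lineage marker genes had a region within 1 kb of the start site, including Cd79a, Cd79b, Ebf1, Pax5, Igll1 and Vpreb1, against 1 of 8 T cell, 1 of 6 myeloid and 1 of 5 erythroid markers. Cd22, Rag1 and Rag2 were among those with no such region.

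The sequences that the results turn on are given here from the forward strand of mm10. The 3 distal regions that follow carried signal at 0 hours and almost none at 24 hours, and capitals mark the Ikaros core GGGAA on either strand, which 1 of the 3 lacks.
Near Kif2a, chr13:107094586-107094730: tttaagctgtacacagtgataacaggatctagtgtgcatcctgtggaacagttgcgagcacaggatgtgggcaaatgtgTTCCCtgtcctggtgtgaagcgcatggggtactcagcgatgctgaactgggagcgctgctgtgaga
Near Lyplal1, chr1:186407749-186407866: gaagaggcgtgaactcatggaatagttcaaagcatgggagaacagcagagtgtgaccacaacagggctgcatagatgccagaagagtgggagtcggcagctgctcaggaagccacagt
Near Saraf, chr8:34385307-34385454: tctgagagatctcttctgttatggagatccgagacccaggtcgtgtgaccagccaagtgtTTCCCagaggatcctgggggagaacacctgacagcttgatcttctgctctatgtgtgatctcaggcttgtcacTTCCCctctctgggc

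The next 4 regions carried more signal at 24 hours. The sequences near Crhr1, Hsfy2 and Meox2 matched a ribosomal RNA gene copy, and the sequence near Olfr161 is a tandem repeat in which capitals mark the letters CACAGTG on either strand.
Near Crhr1, chr11:104072913-104073012: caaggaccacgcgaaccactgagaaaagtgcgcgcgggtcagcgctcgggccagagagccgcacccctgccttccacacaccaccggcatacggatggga
Near Hsfy2, chr1:56782173-56782354: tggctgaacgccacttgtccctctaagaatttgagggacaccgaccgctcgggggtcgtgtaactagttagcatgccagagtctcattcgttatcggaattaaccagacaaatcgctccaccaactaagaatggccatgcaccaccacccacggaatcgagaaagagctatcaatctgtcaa
Near Meox2, chr12:36816274-36816420: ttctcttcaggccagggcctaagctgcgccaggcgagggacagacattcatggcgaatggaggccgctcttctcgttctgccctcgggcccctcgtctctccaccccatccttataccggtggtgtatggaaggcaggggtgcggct
Near Olfr161, chr16:3236753-3236894: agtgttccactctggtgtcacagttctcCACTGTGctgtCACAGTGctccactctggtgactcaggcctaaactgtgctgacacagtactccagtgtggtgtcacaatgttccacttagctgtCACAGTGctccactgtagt

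Of the regions in the immunoglobulin heavy chain locus, Igh, 2 are shown that span the 3′ end of a V segment, with the recombination heptamer, CACAGTG on the segment's own strand, in capitals and read here on the other strand. A further region lies between the J segments and Ighm, with the octamer ATTTGCAT on the reverse strand in capitals.
Ighv9-2, chr12:114108861-114109005: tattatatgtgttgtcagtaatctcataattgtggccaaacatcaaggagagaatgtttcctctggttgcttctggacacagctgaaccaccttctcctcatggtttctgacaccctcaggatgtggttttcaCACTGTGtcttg
Ighv9-3, chr12:114140621-114140767: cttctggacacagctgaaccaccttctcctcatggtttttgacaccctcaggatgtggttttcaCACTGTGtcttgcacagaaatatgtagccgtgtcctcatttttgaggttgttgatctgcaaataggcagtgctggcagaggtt
Past Ighj4, chr12:113427406-113427556: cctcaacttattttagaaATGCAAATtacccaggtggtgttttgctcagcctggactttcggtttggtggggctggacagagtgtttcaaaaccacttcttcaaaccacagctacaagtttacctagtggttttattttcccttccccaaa

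The last pair are the distal region detected in the most cells, which matched the mitochondrial genome, and the single-copy distal region with a CTCF consensus, in capitals, that was detected in the most cells.
Near G6pd2, chr5:60042809-60042959: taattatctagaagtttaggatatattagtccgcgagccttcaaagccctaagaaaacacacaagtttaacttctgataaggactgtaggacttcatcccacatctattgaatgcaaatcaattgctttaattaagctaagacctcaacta
Near Cp, chr3:19894670-19894849: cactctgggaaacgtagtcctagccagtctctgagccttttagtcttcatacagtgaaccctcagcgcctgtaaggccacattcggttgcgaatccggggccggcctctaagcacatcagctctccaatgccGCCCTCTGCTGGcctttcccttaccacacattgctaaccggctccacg

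Distal regions were short, with a median width of 135 bp and widths from 4 to 283 bp, and they were less rich in G and C than the other classes. Their median GC content was 50.8%, against 53.4% in intergenic regions within 50 kb, 52.9% in intronic regions, 60.4% in exonic regions and 65.7% in regions within 1 kb of a start site. GC content was lower farther from start sites, from a median of 52.2% at 50 to 100 kb (831 regions) to 45.0% beyond 500 kb (136 regions). The median distance to a start site was 110 kb, with quartiles of 70.2 and 205 kb, and 967 lay upstream and 864 downstream of the nearest start. They had 908 nearest genes, 531 of which had 1 distal region. The 44 regions nearest Zfp386 lie in or beside Igh, and the next most were 15 nearest Zfp36l1, 14 each nearest Mef2c and Adgrl2, and 12 nearest Adam6a, also in Igh. Chromosome 12 held the largest share, 167 of its 843 regions (19.8%), and chromosome 11 the smallest, 53 of 1479 (3.58%).

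Most distal regions, 1424 (77.8%), overlapped no gene record of any type. Long noncoding RNA records covered 341, of which 279 were lincRNAs, immunoglobulin or T cell receptor segments covered 24, and 111 lay within 1 kb of the start of a long noncoding record. Distal regions came in groups: 784 (42.8%) had another distal region within 12.5 kb, and 366 lay in 101 groups of 3 or more. The largest groups were 9 regions over 9.69 kb near Olfr161, 7 near Mef2c, 7 near Ywhaz and 6 each near Zfp36l1, Zfp36l2 and Zfp386.

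A sequence present more than once in the genome leaves the place of a read uncertain. By BLAST at 90% identity over 80% of the region, 1656 distal regions (90.4%) had 1 copy, 161 (8.79%) had 2 or more and 20 had 10 or more, and 14 gave no match. The search was megablast, which can miss diverged copies, so these are the copies found and not an upper limit. In the other classes 94.9% to 97.7% of regions had 1 copy. The share with 1 copy was 92.3% at 50 to 100 kb and 71.3% beyond 500 kb. The regions just outside the distance limit, at 49.88 to 49.96 kb, were near Gpc5, Chst14 and Spocd1 and were detected in 15, 22 and 9 cells. Those just inside, at 50.02 to 50.11 kb, were near Lrrc8d, Rgs8 and Glrx and were detected in 5, 7 and 6 cells. The farthest, chr1:102628201-102628338 at 2140 kb from Cdh20, had 4 copies and summed signal of 20 and 6 in the 0-hour runs, compared with 30 and 52 at 24 hours.

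Signal in distal regions was sparse. A distal region was detected in a median of 10 of 227 cells, the same as intergenic regions within 50 kb and intronic regions and below the 19 of start-site regions, and 170 (9.28%) were detected in at least 10% of cells. Values were 1 or 2 per cell and region, never higher, and 52.7% to 55.9% of the detected values of a run were 2. The median cell had signal in 135.5 and 98 distal regions at 0 hours, by run, and in 75.5 and 46 at 24 hours. Cells held from 334 to 7940 counts over all regions, and runs from 92639 to 164357.

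The distal regions held a smaller part of the signal at 24 hours. They took 7.67% and 8.49% of the signal of the 0-hour runs and 6.29% and 4.88% of that of the 24-hour runs, so that neither 24-hour run reached a 0-hour run. The mean was 8.08% ± 0.581 (SD, n = 2 runs) at 0 hours and 5.59% ± 0.997 (SD, n = 2 runs) at 24 hours, 1.45-fold higher at 0 hours (p = 0.333 in a two-sided exact permutation test, which is the smallest p possible for 2 runs against 2). Intronic regions went from 20.0% and 21.1% to 15.7% and 11.7%, intergenic regions within 50 kb from 14.2% and 14.9% to 12.7% and 10.6%, and start-site regions went from 51.0% and 48.5% to 58.3% and 66.4%, each at the same smallest p. Among single cells, the median share in distal regions was 7.96% and 8.59% in the 0-hour runs, compared with 5.87% and 4.50% at 24 hours. Depth differed between runs, and cells with at least 837 counts were therefore also thinned to that number, at random. This held 48 of 48 and 46 of 47 cells of the 0-hour runs but 47 of 60 and 63 of 72 of the 24-hour runs, so the shallower 24-hour cells are missing from the thinned values. The shares were then 7.85% and 8.72% at 0 hours and 6.34% and 4.83% at 24 hours.

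**Figure D1:**
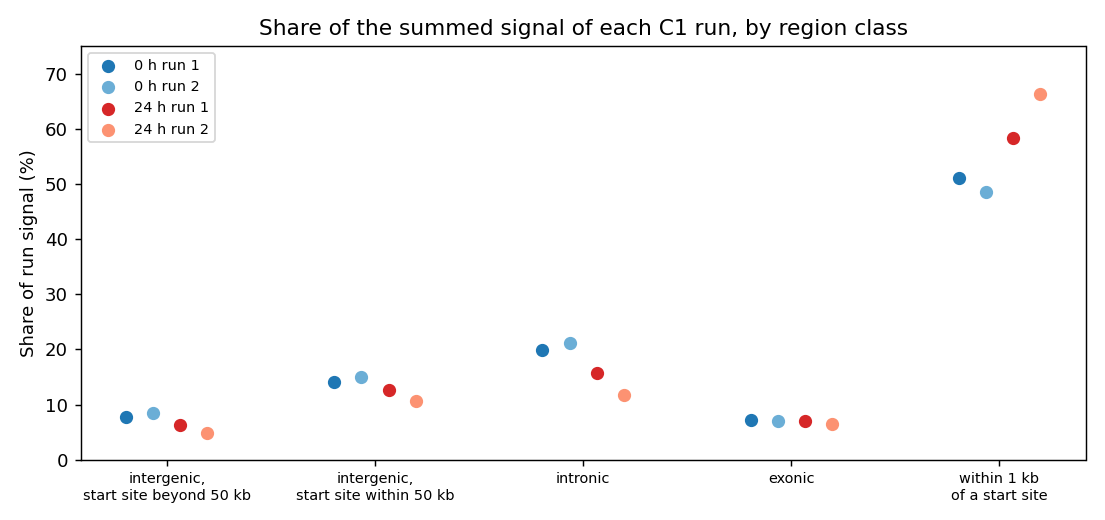
The share of the summed signal of each C1 run (y axis, percent) is plotted for 5 classes of regions, with 1 point per run. Distal intergenic regions, at the left, sit at 7.67% and 8.49% in the 0-hour runs and at 6.29% and 4.88% in the 24-hour runs, and of the 5 classes only the start-site class has its 2 highest points at 24 hours.

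The mean share of cells with signal in a distal region was 9.20% and 5.89% in the 0-hour runs, compared with 4.60% and 3.40% at 24 hours. Intergenic regions within 50 kb had 8.95% and 5.54%, then 4.85% and 3.84%. Distal regions were thus above them by 0.247 and 0.352 percentage points at 0 hours and below them by 0.250 and 0.442 points at 24 hours. Over all 4 runs the difference averaged -0.0231 points, which was within the spread between runs (two-sided exact sign-flip test, p = 0.875). Against start-site regions, distal regions were lower in 4 of 4 runs, by 3.94 points on average (exact sign-flip p = 0.125, the smallest that 4 runs can give). Against intronic regions the difference was -0.200 points (exact sign-flip p = 0.25).

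Region by region, the distal regions shifted towards 0 hours. Their median log2 change, 24 hours over 0 hours, was -0.68 in edgeR after TMM scaling, against -0.06 over all regions, -0.39 in intergenic regions within 50 kb, -0.72 in intronic regions and 0.33 in start-site regions. For 859 distal regions (46.9%) both 0-hour runs had a larger share of cells with signal than either 24-hour run, as had 33.7% of all regions. The reverse held for 123 (6.72%), beside 8.59% of all regions. These shares of cells are not scaled for depth, and a run with more counts per cell can reach larger shares. The 48 and 47 cells of the 0-hour runs held 164357 and 92639 counts, and the 60 and 72 cells of the 24-hour runs 122586 and 142611. How much of this measure follows depth was not tested. At an unadjusted p below 0.05 in edgeR, 244 distal regions (13.3%) were higher at 0 hours, beside 7.0% of all regions, and 74 (4.04%) were higher at 24 hours, beside 5.11%. The median was lower farther away, from -0.59 at 50 to 100 kb to -0.88 beyond 500 kb. It was -0.66 in distal regions with no gene record, -0.70 in those in a lincRNA record, and -0.47 in the 111 regions near the start of a long noncoding record. Every region of the matrix had signal in at least 5 cells. Of the distal regions 91 had none in the 24-hour runs and 25 none in the 0-hour runs, beside 483 and 129 of all regions. Such regions reached 5 cells through 1 time-point alone, so the shift and the counts above hold this selection.

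**Figure D2:**
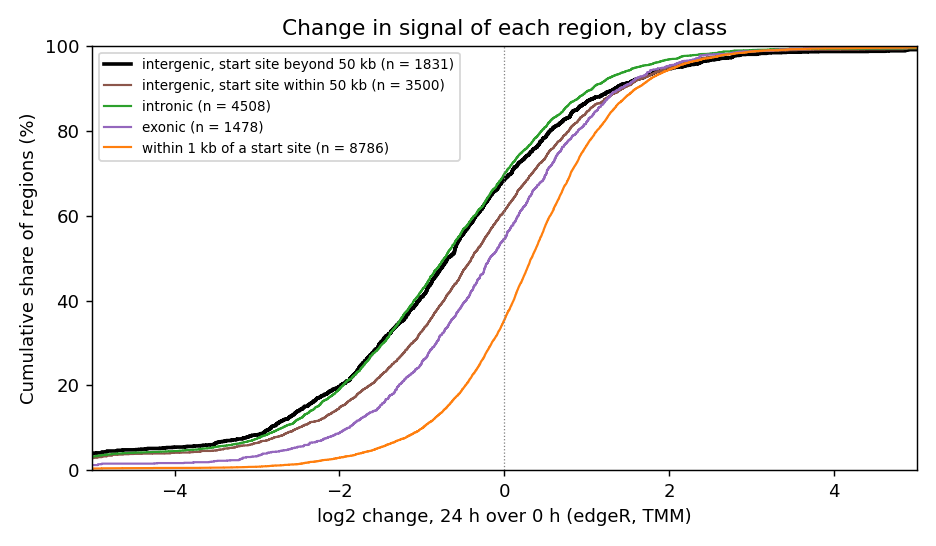
The cumulative share of regions (y axis, percent) is plotted against the log2 change in summed signal, 24 hours over 0 hours (x axis), with 1 line per class of regions. The black line of the distal intergenic regions follows that of the intronic regions, crosses its middle at -0.68 and lies left of the lines of the other 3 classes over most of the range.

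After adjustment over all 20103 regions, 2 distal regions were called higher at 0 hours (0.109%) and 3 higher at 24 hours (0.164%), at an adjusted p below 0.05. Over all regions 0.0149% were called higher at 0 hours and 0.0398% higher at 24 hours. With DESeq2, with RLE scaling, with thinned cells and with values reduced to detected or not, 0 distal regions were called, while edgeR with RLE scaling had 241 and 71 at an unadjusted p below 0.05, DESeq2 127 and 36, thinned cells 99 and 18, and detected or not 234 and 76. Leaving out 24-hour run 1 gave 59 and 27 calls, leaving out 0-hour run 2 gave 0 and 0, leaving out 0-hour run 1 gave 0 and 3, and leaving out 24-hour run 2 gave 0 and 1. In each of these fits 1 time-point had a single run, which was assumed to vary like the runs of the other.

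The region chr13:107094586-107094730, 72.5 kb from the start of Kif2a, a kinesin gene, and inside the noncoding record Gm31452, had summed signal of 30 and 18 in the 0-hour runs, compared with 2 and 2 at 24 hours. Signal was seen in 32.6% of the 95 0-hour cells (95% interval 23.4 to 43.0%, exact Clopper-Pearson) and in 2.27% of the 132 24-hour cells (0.471 to 6.50%). The log2 change was -3.51 (SE 0.761, edgeR adjusted p = 0.0451). The region chr1:186407749-186407866, 290 kb from Lyplal1, a lysophospholipase-like gene, had 25 and 7 counts at 0 hours and none in either 24-hour run. That is at least 11-fold lower at 24 hours, taking 3 counts over both runs as the limit of a count of 0 (edgeR adjusted p = 0.0433). No 24-hour cell had signal there, which allows a share of up to 2.27% on the limit of 3 counts and up to 2.76% by the exact interval. Both regions had 1 copy in the genome. Their groups of runs did not overlap, which the rule for naming called regions required. By the share of cells with signal, 46.9% of distal and 33.7% of all regions were likewise higher in both 0-hour runs. Intervals and limits cover counting error only. The limit on counts also takes each count as independent and leaves out the error of the 0-hour counts. A cell can give 2 counts, and the 0-hour counts of the Lyplal1 region came from 20 cells.

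Among the other single-copy regions detected in at least 10 cells, the smallest p at 0 hours after these was at chr8:34385307-34385454, 231 kb from Saraf and inside the noncoding record Gm33831. It had 16 and 11 counts in the 0-hour runs and none in the 24-hour runs, at least 9.29-fold lower at 24 hours on the same limit, and it missed the threshold (edgeR adjusted p = 0.0604). Its sequence holds the Ikaros core at 2 places, that of the Kif2a region at 1, and that of the Lyplal1 region at none.

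The 3 distal regions called higher at 24 hours were all repeated sequences. The region chr11:104072913-104073012, 59.9 kb from Crhr1, had 20 and 5 counts in the 0-hour runs, compared with 51 and 85 at 24 hours (log2 change 2.50, SE 0.493, edgeR adjusted p = 0.0155). The region chr1:56782173-56782354, 145 kb from Hsfy2, had nearly the same sums, 22 and 5 and then 48 and 85 (log2 change 2.36, SE 0.493, edgeR adjusted p = 0.0326). Both 24-hour runs exceeded both 0-hour runs in each, which the naming rule required, beside 6.72% of distal and 8.59% of all regions. The region chr9:124256384-124256496, with 134 copies and 85.0% of its bases masked as repeat, had 10 and 3 counts, then 39 and 51 (log2 change 2.81, SE 0.557, edgeR adjusted p = 0.0155).

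The Crhr1 and Hsfy2 regions matched one ribosomal RNA gene copy on chromosome 17, at chr17:39843013-39848827, which GENCODE annotates as an rRNA record with overlapping noncoding records, and no region of the matrix lies there. Ribosomal RNA genes are transcribed by RNA polymerase I from arrays that the assembly largely leaves out. The Crhr1 region was 97.0% identical to bases 39843123 to 39843221 and the Hsfy2 region 96.7% identical to bases 39847647 to 39847828. A search made after these calls were seen found 5 of the 20103 regions that matched this copy over at least 80% of their length, of which 4 were distal. The other distal ones were chr12:36816274-36816420, 292 kb from Meox2 and at the miRNA record Mir5099, for which the megablast search had found 1 copy, with 4 and 0 and then 12 and 15 counts, and chr4:78773928-78774078, 562 kb from Ptprd, with 2 and 0 and then 4 and 6 counts. They had log2 changes of 2.75 (edgeR adjusted p = 0.220) and 2.25 (edgeR adjusted p = 0.550). In all 4 distal matches, of which the Crhr1 and Hsfy2 regions prompted the search, both 24-hour runs exceeded both 0-hour runs, beside 8.59% of all regions. Their log2 changes were above 0 in each fit that held them, the lowest being 1.59. The fit of regions detected in at least 10% of cells held 2 of the 4, those near Crhr1 and Hsfy2. Where the reads of these regions came from was not tested.

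A second group that was higher at 24 hours was the tandem repeat on chromosome 16. All 9 regions between 3231763 and 3241456, 350 to 359 kb from Olfr161, an olfactory receptor gene, were distal, and 32.8% to 89.9% of the bases of each were masked as repeat. They summed to 16 and 17 counts in the 0-hour runs, compared with 77 and 141 at 24 hours. Cells with signal in at least 1 of them numbered 7 of 48 and 10 of 47 at 0 hours and 21 of 60 and 32 of 72 at 24 hours. In 9 of 9 both 24-hour runs exceeded both 0-hour runs, beside 8.59% of all and 6.72% of distal regions. Log2 changes were from 1.58 to 3.42 in the 8 with signal at 0 hours, and the other had none in the 0-hour runs and 1 and 10 counts in the 24-hour runs. In the main fit the smallest edgeR adjusted p was 0.114, so none was called, and 6 had an unadjusted p below 0.05. With 1 run left out, the lowest log2 change of the 9 was from 0.93 to 2.02, depending on the run. The region detected in the most cells, chr16:3236753-3236894, had 2 and 2 counts and then 15 and 21, and shifted against itself by 63 bases its sequence agreed at 79.3% of positions. Neighbouring regions of 1 repeat are not independent, and 4 of the 9 had a single copy by the BLAST criterion.

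**Figure D3:**
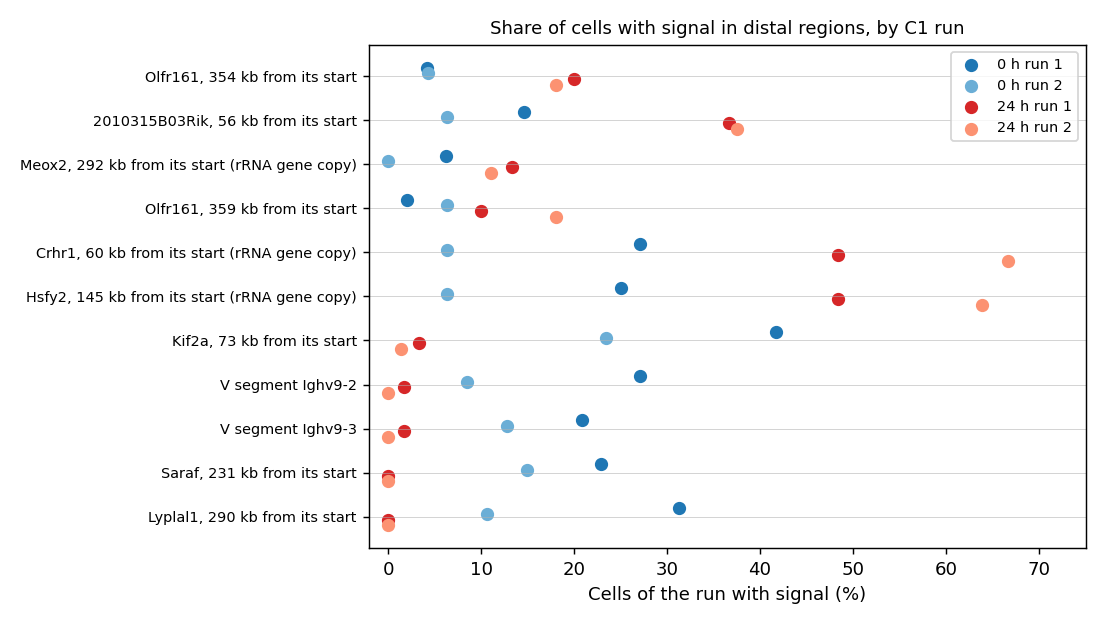
The share of cells with signal (x axis, percent) is plotted for each of 4 C1 runs in 11 distal regions: those called or with the smallest p among regions with 1 copy by megablast, and 2 regions at Ighv9 segments, singled out after their values were seen. Regions are named by the nearest protein-coding start or by the V segment and ordered by log2 change. Blue 0-hour points lie right of red 24-hour points in the lower 5 regions and left of them in the upper 6.

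The distal region detected in the most cells was chr5:60042809-60042959, at 1766 kb from G6pd2, with signal in 224 of 227 cells. Its summed values, 96 and 92 in the 0-hour runs, compared with 117 and 139 at 24 hours, were close to the most that values of at most 2 allow, so a change in it could hardly be seen. It was 97.4% identical to the mitochondrial genome over the matching stretch. The next 3 by cells detected, chr10:85026127-85026273 near Fhl4 with 214 cells and 2 regions near Gm8797 with 184 and 100 cells, matched the mitochondrial genome as well, at 87.4% to 94.5%. In all, 10 distal regions of the 27 such regions matched. They held 0.304% and 0.580% of the signal of the 0-hour runs and 0.331% and 0.352% of that of the 24-hour runs, and without them the distal share was 7.36% and 7.91% and then 5.96% and 4.53%.

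Single-copy distal regions reached at most 91 cells. The highest was chr13:107890114-107890286, 154 kb from Smim15, with 37 and 25 counts at 0 hours and 35 and 58 at 24 hours (log2 change 0.55, edgeR adjusted p = 0.675). Next came chr8:102024602-102024749 near Cdh11, a cadherin gene, with 53 and 66 and then 15 and 35 counts (log2 change -1.39, edgeR adjusted p = 0.210), and chr10:60162333-60162572 near Spock2, with 39 and 43 and then 16 and 13 (log2 change -1.58, edgeR adjusted p = 0.191). These 2 also resembled mitochondrial DNA, at 85.4% and 90.2%. The region chr15:85634614-85634757, 52.2 kb from Wnt7b, had 29 and 10 and then 17 and 23 counts, and chr13:111867978-111868255, 59.1 kb from Map3k1, had 11 and 14 and then 13 and 32. In both the groups of runs overlapped.

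The antigen receptor loci, where V, D and J segments are joined by the RAG recombinase, held 83 distal regions (4.53%), since their segments are no protein-coding gene records. Igh on chromosome 12 had 61, the kappa light chain locus Igk on chromosome 6 had 15, Igl had 1, and the T cell receptor loci had 3 at Tra/Trd, 3 at Trg and none at Trb. The 61 Igh regions summed to 447 and 302 counts in the 0-hour runs, compared with 260 and 171 at 24 hours, which is 0.272% and 0.326% and then 0.212% and 0.120% of the signal of the run. The share was 1.80-fold higher at 0 hours (two-sided exact permutation test, p = 0.333, the smallest possible), compared with 1.45-fold for all distal regions. The 15 Igk regions summed to 122 and 67 and then to 56 and 65 counts, 1.61-fold higher at 0 hours as a share of the run (exact permutation p = 0.333). Both 0-hour runs had the larger shares of cells for 34 Igh (55.7%) and 8 Igk regions (53.3%), beside 46.9% of distal and 33.7% of all regions. The median log2 change was -0.77 in Igh and -0.99 in Igk, beside -0.68 in all distal regions. The Igh median did not stand apart from that of distal regions in every fit, being -0.39 beside -0.62 without 0-hour run 2, -0.47 beside -0.51 without 24-hour run 2, and -1.36 beside -1.21 without 24-hour run 1. In thinned cells it was -0.72 beside -0.77. In the main fit no region of any of these loci was called by edgeR. This does not extend to the fits with 1 run left out, where a time-point had a single run. The smallest adjusted p in Igh was 0.171, and over all loci 11 regions (13.3%, the share of all distal regions) at an unadjusted p below 0.05 were higher at 0 hours and 2 (2.41%) at 24 hours, beside 7.0% and 5.11% of all regions. Of the 61 Igh regions 44 had 2 or more copies, and reads of related V segments can be exchanged between them.

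Many of these regions sat at the end of a V segment, where the recombination signal lies. A window from 200 bp inside to 300 bp beyond the 3′ end, set after the positions were seen, held 32 distal regions, 27 in Igh and 5 in Igk. In 15 of them the heptamer CACAGTG stood on the strand of the segment within the 150-bp window at the midpoint of the region. The letters CACAGTG occurred on either strand in 7.97% of distal regions, 146 in all and 9 of them in the Olfr161 repeat, and in 4.17% of all regions. Of the 32 regions 27 had a log2 change below 0, with a median of -1.14, where 68.4% of distal and 52.0% of all regions were below 0, and 22 (68.8%) were higher in both 0-hour runs, beside 46.9% of distal and 33.7% of all regions. For the 15 with the heptamer the median was -1.44, 13 were below 0 and 11 (73.3%) were higher in both 0-hour runs. The other 34 Igh regions had a median of 0.02, with 17 below 0 and 15 higher in both 0-hour runs. At an unadjusted p below 0.05 in edgeR, 5 of these 34 and 4 of the 32 were higher at 0 hours, beside 13.3% of distal and 7.0% of all regions. Of the 32 regions 7 had 1 copy, as had 4 of the 15 with the heptamer and 12 of the other 34. Reads can thus be exchanged between related segments, and the regions are not independent. The difference between these groups was not tested. Segments of the Ighv8 family had 10 of the 32, centred 97 to 277 bp beyond the segment and without the heptamer, and 5 more lay over 4 kb on the 5′ side of the 3′ ends of Ighv8 segments, 4 of them with a log2 change below 0.

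The Igh regions with the smallest p were at Ighv9-3 and Ighv9-2, singled out after their values were seen. The Ighv9-3 region, chr12:114140621-114140767, had 14 and 8 counts in the 0-hour runs, compared with 1 and 0 at 24 hours, a ratio of 22.7 (95% counting interval 3.67 to 937; edgeR adjusted p = 0.171). The Ighv9-2 region, chr12:114108861-114109005, had 20 and 7 and then 2 and 0, a ratio of 13.9 (95% counting interval 3.50 to 121; edgeR adjusted p = 0.175). These intervals take each count as independent. A cell can give 2 counts, and the 0-hour counts came from 16 cells at Ighv9-3 and 17 at Ighv9-2, so the intervals are too narrow. The midpoints of the 2 regions lie 2 bp inside and 68 bp beyond the 3′ ends of the segments. The 2 regions had 4 and 3 copies in the genome and share much of their sequence, as the sequences above show, so a read may not be placed with certainty in one of them. The 5 antigen receptor regions detected in the most cells were chr16:19179367-19179523 in Igl (18 and 2, then 19 and 11 counts), chr12:115193551-115193828 at Ighv1-54 (27 and 10, then 10 and 9), chr12:115888064-115888210 at Ighv1-79 (16 and 18, then 8 and 2), chr6:68481258-68481404 at Igkv15-101 (15 and 11, then 4 and 14) and chr12:113321143-113321292, 4022.5 bp past Ighg1 (27 and 6, then 4 and 2). By the share of cells with signal the groups of runs did not overlap in 4 of these 5, the Igl region being the exception, beside 46.9% of distal and 33.7% of all regions with higher 0-hour runs, and all 5 had an edgeR adjusted p of 0.241 or more.

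**Figure D4:**
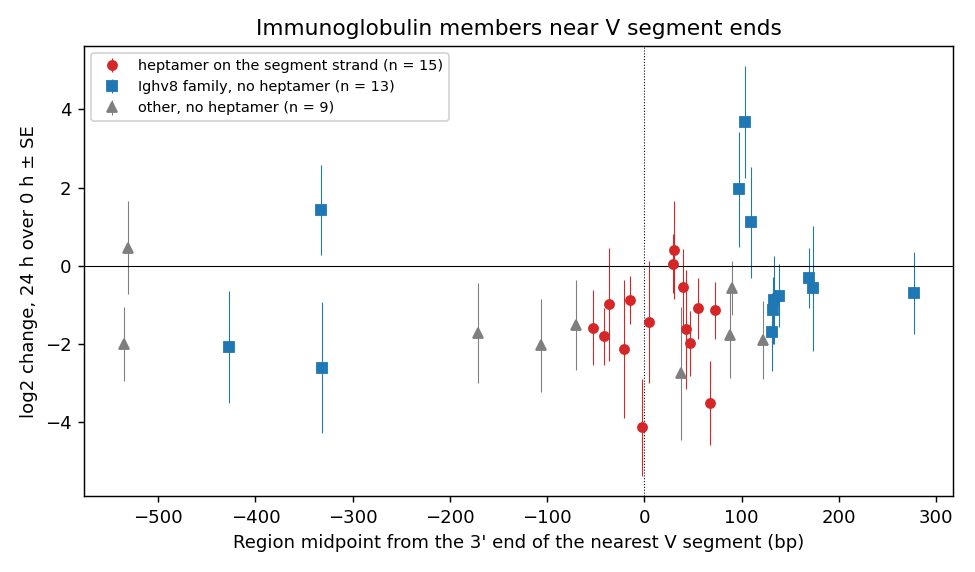
The log2 change, 24 hours over 0 hours, with its SE (y axis), is plotted against the distance of the region's midpoint from the 3′ end of the nearest V segment (x axis, bp) for immunoglobulin regions near a segment end. Regions with the heptamer, in red, lie from 52.5 bp inside to 73 bp beyond the end, and 13 of these 15 are below 0. Ighv8 regions, in blue, gather near 100 to 170 bp beyond it.

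Between the J segments and Ighm lies the intronic heavy chain enhancer of B cells. The region chr12:113427406-113427556, 1033 bp beyond Ighj4, held the octamer ATTTGCAT that OCT proteins bind and had 11 and 8 counts at 0 hours and 10 and 3 at 24 hours. Its neighbour chr12:113426747-113426881 had 7 and 2 and then 8 and 5. The groups of runs overlapped in both, and neither was called (edgeR adjusted p = 0.850 and 0.867). Both were chosen for their place after the values were seen.

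Of 62 B-lineage genes listed for transcription factors, receptors and signalling, 25 were the nearest gene of 92 distal regions. None of the 92 was called, and 62 had a log2 change below 0, with a median of -0.59, where 68.4% of distal and 52.0% of all regions were below 0. Both 0-hour runs were higher for 46 (50.0%) and both 24-hour runs for 6 (6.52%), near the 46.9% and 6.72% of distal regions, with 33.7% and 8.59% of all regions. At an unadjusted p below 0.05, 9 (9.78%) were lower and 6 (6.52%) higher at 24 hours. The shares were 13.3% and 4.04% of distal regions and 7.0% and 5.11% of all regions. A nearest gene is a neighbour on the chromosome, and whether the region acts on it was not measured.

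Some of these genes, chosen after their values were seen, had several distal regions. All 7 regions nearest Zeb2, a zinc-finger repressor gene, had a log2 change below 0, as had 68.4% of distal regions. They lie 137 to 1430 kb from its start, and together they had 45 and 30 counts in the 0-hour runs, compared with 4 and 10 at 24 hours (0.0274% and 0.0324%, then 0.00326% and 0.00701% of the signal). The 7 nearest Runx1, a core-binding factor gene of blood development, had 51 and 41 and then 32 and 9 counts, with 6 of 7 below 0. The 14 nearest Mef2c, a MADS-box factor gene of B cell development, had 109 and 68 and then 86 and 54 counts, and their share of the run overlapped between time-points. The 10 nearest Foxo1, which drives Rag expression in pre-B cells, had 79 and 53 and then 58 and 55, with 6 of 10 below 0. Of these 10, 2 were higher in both 0-hour runs and 2 in both 24-hour runs.

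Single regions near these genes had few counts. The most detected Foxo1 neighbour, chr3:52443961-52444140 at 176 kb, had 27 and 15 and then 12 and 16 counts in 42 cells (log2 change -0.58, edgeR adjusted p = 0.736). The one near Satb1, a chromatin organizer gene, chr17:51904095-51904237 at 70.9 kb, had 2 and 7 and then 19 and 12 counts (log2 change 1.65, edgeR adjusted p = 0.364). The one near Lef1, a factor gene of early B cells, chr3:131054364-131054509 at 56.0 kb, had 17 and 5 and then 2 and 3 counts (log2 change -2.01, edgeR adjusted p = 0.370). The one near Ebf1, which specifies the B lineage, chr11:45008158-45008311 at 391 kb, had 19 and 6 and then 1 and 12 counts, so its runs overlapped. The most detected neighbours of Nr3c1, Mef2c, Id2, Btg1, Bcl6, Ets1, Rreb1 and Runx1 had adjusted p-values from 0.550 to 0.959 in edgeR.

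Other gene neighbourhoods rich in distal regions, named for their number of regions and not for their change, included Zfp36l1, Adgrl2, Map3k1, Cited2 and Gpc5. Of the 15 regions nearest Zfp36l1, which encodes an mRNA-decay factor, 14 had a log2 change below 0, and they summed to 139 and 54 and then to 68 and 35 counts. Of the 14 nearest Adgrl2, an adhesion receptor gene, 12 were below 0 (79 and 55, then 34 and 11 counts). The 11 nearest Map3k1, a kinase gene of JNK signalling, had 9 below 0 (152 and 86, then 76 and 70 counts). The 10 nearest Cited2 and the 9 nearest Gpc5 each had 6 below 0. These counts are to be read against the 68.4% of distal regions below 0. None of the regions nearest these 5 genes was called by edgeR.

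Motifs were counted as exact letters on either strand in the 150-bp window around the midpoint. Several motifs were about as frequent in distal as in intronic regions and differed in start-site regions. The E-box CAGCTG was in 20.2% of distal, 18.8% of intronic and 7.93% of start-site regions, and the RUNX letters TGTGGT in 25.5%, 24.6% and 5.53%. The AP-1 letters TGANTCA were in 6.94%, 5.90% and 1.66%, while the SP letters GGGCGG were in 8.41%, 11.7% and 55.2%. The Ikaros core GGGAA did not follow this, at 38.6%, 42.1% and 38.0%, with 39.2% of all regions, nor did TGGGAA, at 10.7%, 12.1% and 10.5%. The EBF1 consensus was in 8.25% and the MEF2 consensus in 3.00% of distal regions, 9.45% and 3.37% of intronic and 6.07% and 1.62% of all regions.

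Distal regions with the CTCF consensus held shares of the signal that overlapped between the time-points. They numbered 77 (4.21%, beside 7.86% of intergenic regions within 50 kb and 3.29% of all regions), and 68 had 1 copy. They held 0.234% and 0.188% of the signal in the 0-hour runs, compared with 0.241% and 0.189% at 24 hours (two-sided exact permutation test, p = 0.667), whereas the other 1754 held 7.43% and 8.30% and then 6.05% and 4.69% (exact permutation p = 0.333). The median log2 change was 0.08 with the consensus and -0.71 without it, and 27.3% with it and 47.8% without it were higher in both 0-hour runs, beside 33.7% of all regions. The median with the consensus turned to -0.40 when the number of cells was the offset, where the median of all regions was -0.51, and it was also below 0 in 4 other refits. One of these was the refit of thinned cells, at -0.12, where a second random draw gave 0.25. In all 13 fits it stayed above the median of the distal regions without the consensus, by 0.54 to 1.02. The difference itself was not tested. In intergenic regions within 50 kb and in intronic regions with the consensus the medians were 0.26 and 0.19. The most detected example, the sequence given above near Cp, was seen in 36 cells and had 31 and 1 and then 8 and 17 counts (log2 change -0.18, edgeR adjusted p = 0.946).

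Of the 16 motifs searched, 11 had a lower median with the motif than without it and 5 a higher one. Distal regions with the RUNX letters had a median log2 change of -0.99 and those without -0.60. The values were -0.97 and -0.61 for the longer Ikaros letters TGGGAA, -0.96 and -0.63 for the EBF1 consensus, -0.90 and -0.60 for CAGCTG, -0.89 and -0.60 for the ETS letters GGAAGT and -1.02 and -0.66 for the MEF2 consensus. They were -0.93 and -0.63 for AP-1, -0.89 and -0.64 for the STAT letters TTCNNNGAA, -0.86 and -0.67 for CACAGTG, -0.82 and -0.59 for GGGAA and -0.69 and -0.68 for the E-box CAGGTG. Beside CTCF the higher medians with the motif were -0.20 against -0.72 for SP, -0.42 against -0.69 for the E-box CACGTG, -0.49 against -0.69 for the FOX letters TGTTTAC and -0.57 against -0.72 for the NF-Y letters CCAAT. None of these differences was tested. Motifs overlap in letters, GGGAA being part of TGGGAA and of many GC-rich stretches, and a region can count for several. A match is a match of letters and does not show binding.

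**Figure D5:**
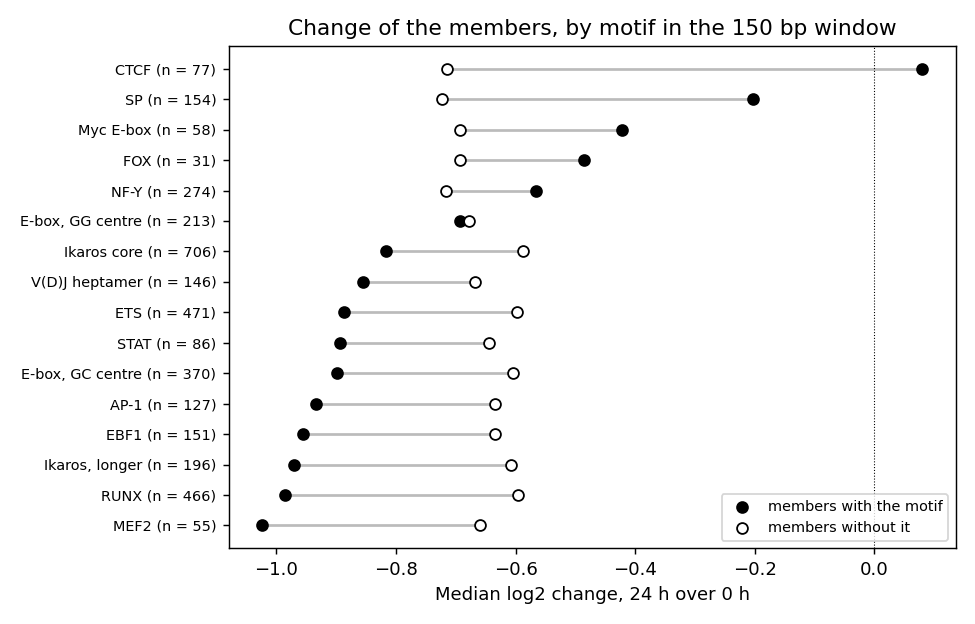
The median log2 change, 24 hours over 0 hours (x axis), is plotted for distal regions with a motif in the 150-bp window (filled points) and for those without it (open points), with 1 row per motif and the number of regions with it. The CTCF row stands at 0.08 with the motif and -0.71 without, and the RUNX and MEF2 rows stand at -0.99 and -1.02 with the motif.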

How the data were processed

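Single-cell ATAC-seq was measured in 227 cells of 4 C1 runs. Per the study's methods, the authors mapped reads to mm10 with Bowtie2, removed duplicates with Picard and called peaks on bulk samples with HOMER. They deposited whole-number counts, 20103 regions by 227 cells, without normalization, and no value is above 2. No source read for this work says whether larger values were capped. The 6 bulk samples and single-cell samples without a column in the matrix were not analysed here, and 0 columns of the matrix were left unmatched to a sample.

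For each run the counts of its cells were added up, because cells are no replicates, and p-values measure only the spread between runs. No 2 cells had identical values, and 78 well positions were used in more than 1 run. The test was edgeR 4.0.16 under R 4.3.3 (quasi-likelihood, TMM, Benjamini-Hochberg over all regions, threshold 0.05), with DESeq2 1.42.0 as an alternative. The dispersion corresponded to a coefficient of variation of 0.419. On simulated data with a coefficient of 0.42, 0 of 200 regions changed by a log2 of 2 were called, and with 0.1 the test called 53, so most changes of this size are not recovered here. Shares were compared by exact permutation tests in SciPy 1.17.1. Sequences came from GRCm38, the build of the files, and were searched with BLAST 2.17.0. A copy was a match of 90% identity that covered 80% of the region, and mitochondrial matches had an E-value of 1e-05. Thinned cells held 837 counts, which left out 23 cells. No doublet caller was run, and per the methods capture sites were inspected by eye.

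Regions were named by rule: up to 5 called in each direction, the 5 most detected of all and of single-copy regions, the 3 smallest p in each direction among single-copy regions in at least 10 cells, the 5 most detected in receptor loci, the most detected neighbour of up to 12 listed B-lineage genes, and those at the distance limit and farthest. Called regions were named only if both runs of one time-point exceeded both of the other. Regions outside these rules are said to be chosen after their values were seen. The regions and lists were chosen with earlier results of these data known. Some genes are not reported here.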

Additional observations from a re-analysis of the deposited data

Results flagged for a closer look

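Distal regions exceeded the intergenic regions within 50 kb in the mean share of cells with signal in both 0-hour runs and fell below them in both 24-hour runs. The difference between the classes was 0.646 percentage points larger at 0 hours than at 24 hours. With 2 runs against 2, the two-sided exact permutation test of this shift gives p = 0.333, the smallest possible, so it was not tested at a threshold of 0.05. Among single-copy regions the differences were 0.148 and 0.222 points at 0 hours and -0.489 and -0.758 at 24 hours, and in thinned cells 0.197 and 0.298 and then -0.0648 and -0.217.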

How the results depend on the processing

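The limits of the calls come first. Distal regions called higher at 0 hours and at 24 hours were 2 and 3, and became 0 and 0 with DESeq2, RLE scaling, thinned cells or values reduced to detected or not. Run totals without TMM gave 3 and 4. The fit of regions detected in at least 10% of cells gave 3 and 3, with 1 of the 2 original 0-hour calls kept. Using the number of cells as the offset gave 1 and 0, the 1 being the Cdh11 region and neither of the original calls, the limit of 100 kb left 1 and 1, and a replicate block 1 and 3, whose numbers are only the order of the runs of a time-point. Calls higher at 0 hours were 1 among regions without a gene record, and calls higher at 24 hours were 0 among single-copy regions. Leaving out 1 run, which takes the spread from the other time-point alone, gave from 0 to 59 and from 0 to 27. The median log2 change stayed below 0, and was -1.10 under the cell-number offset and from -1.21 to -0.51 with 1 run left out. The log2 ratio of the share of signal, -0.53, kept its sign under all settings, and was -0.54 without mitochondria-like regions, a setting chosen after seeing the data.

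The mean difference from intergenic regions within 50 kb, -0.0231 points, turned to 0.0533 in thinned cells and 0.0088 beyond 100 kb, was -0.2191 among regions with 1 copy, and leaving out 1 run gave from -0.1482 to 0.1166. Of the named regions, 43 were refitted, and 23 refits of uncalled changes reversed. Where changes reversed with all runs kept, the log2 changes became, by nearest gene or segment, G6pd2 -0.0283, Fhl4 -0.15, Wnt7b -0.44 and Mef2c -0.0011 under the cell-number offset, Fhl4 -0.0432 and Wnt7b -0.19 with regions in at least 10% of cells, Gm8797 0.0692 with values as detected or not, Wnt7b -0.37, Igkv15-101 0.0910, Mef2c -0.42 and Ets1 -0.10 in thinned cells. With 1 run left out, the changes that reversed ranged over Fhl4 -0.0680 to 0.63, Gm8797 -0.56 to 0.22, Wnt7b -0.20 to 0.57, Igkv15-101 -1.62 to 0.0227, Mef2c -1.25 to 1.24, Bcl6 -1.30 to 0.51, Ets1 -1.08 to 1.25, Lrrc8d -1.31 to 0.30, Glrx -4.60 to 0.56 and Ighj4 -1.71 to 0.13. Thinning is a single random draw, and with a second draw, added after seeing the data, the thinned median of the regions with the CTCF consensus was 0.25 instead of -0.12. The cause was not tested in any of these.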

Other observations

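Of the groups of 5 or more distal regions with no gap over 12.5 kb, some not described above are given here, chosen for genes with a known role, and none of their regions was called. Groups near Ywhaz, Tmco5, Irf2bpl and Cux1 are left out. The 5 regions near Ccnd2, which encodes cyclin D2, summed to 24 and 10 counts in the 0-hour runs and 15 and 7 at 24 hours. The 5 near Dusp6, which encodes a phosphatase of ERK, had 26 and 10, then 11 and 9. As shares of the run the Ccnd2 group overlapped between time-points, at 0.0146% and 0.0108% and then 0.0122% and 0.00491%, and the Dusp6 group did not, at 0.0158% and 0.0108% and then 0.00897% and 0.00631%. Within the neighbourhood of Adgrl2, 5 regions over 26042 bp held 35 and 30 counts at 0 hours and 8 and 2 at 24 hours, all from single-copy sequence. The 6 near Zfp36l2, which encodes an mRNA-decay factor related to that of Zfp36l1, had 29 and 15 counts and then 28 and 31, and the 5 near Bhlhe40, a helix-loop-helix repressor gene, had 34 and 12 and then 25 and 19. These groups are given as values, with no test of any one of them.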
